A study of Capra hircus with 9 samples.

Results

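The microRNAs miR-144, miR-451 and miR-486, known as the red cell miRNAs, were followed in the submandibular gland of goats at 3 ages. Every entry of the deposited table whose number directly after "miR-" is that of miR-144, miR-451 or miR-486 was taken, with or without the goat prefix chi- and with any ending. This gave 10 of the 2189 entries, and 7 of the 10 were among the 937 that passed the filter on low counts.

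Small RNA from the gland of healthy female Lubo goats was sequenced at 1 month (libraries 1, 2 and 3), 12 months (libraries 3, 4 and 5) and 24 months (libraries 2, 3 and 5). All 9 goats were kept under shared conditions with natural light and free feeding, no agent was given, and per the labels each library came from its own animal. Levels are given as CPM scaled by the TMM method (TMM-scaled CPM, the reads of an entry relative to the scaled library total), with library totals of 8288492 to 13277448 counts.

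miR-144 and miR-451 are cut from 1 shared primary transcript that the factor GATA1 switches on as red cell precursors mature. miR-451 is the known exception to the usual route of miRNA processing: its hairpin is too short for the enzyme Dicer and is sliced by Argonaute2 instead, then trimmed at its 3′ end. In mice it protects maturing red cells by restraining 14-3-3 zeta, and miR-144 restrains the antioxidant factor NRF2 in red cells. miR-486 comes from within the ankyrin gene ANK1 and is abundant in both red cells and striated muscle. All of them persist in circulating red cells, so their level in a tissue reflects in part the blood left in its vessels.

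The sequences of 9 of the 10 entries, copied from the deposited table, are shown to make clear which names overlap in sequence and which arm of a hairpin each is named for. Letters are lower case, with the seed (bases 2 to 8, which pair with targets) in capitals.
chi-miR-144-3p: tACAGTATagatgatgtac
miR-144-y: tACAGTATagatgatgtactct
chi-miR-144-5p: tGGGATATcatcatatactgt
miR-144-x: gGATATCAtcatatactgtaagt
chi-miR-451-5p: aAACCGTTaccattactga
miR-451-x: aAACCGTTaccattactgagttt
chi-miR-451-3p: tTTAGTAAtggtaacggttct
miR-486-x: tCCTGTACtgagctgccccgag
miR-486-y: cGGGGCAGctcagtacaggatg

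miR-144-y begins with all 19 bases of chi-miR-144-3p and runs on by 3 more, and miR-451-x begins with all 19 bases of chi-miR-451-5p and runs on by 4. Within each pair the seed is the same, so the names are read here as a shorter and a longer form of 1 RNA and not as separate evidence. Without a goat hairpin sequence, the source of the extra bases could not be placed. miR-144-x shares a run of 19 bases with chi-miR-144-5p but starts 2 bases later, which gives it another seed. No other entry of the table had the seed of any of these 9, and none outside the 10 shared a run of 15 or more bases with a member. The reference table of goat genes (RefSeq, assembly ARS1.2) places MIR451 and MIR144 next to each other, between ERAL1 and FLOT2.

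The 2 arms of each hairpin were very unequal. For miR-144 the 3p arm, the working strand, held most reads, and the 5p arm took 3.09% of 70910 counts, with 1.99% to 4.38% in single libraries. For miR-451 the 5p arm held all but 26 of 72322 counts. Of those 26, chi-miR-451-3p had 3 in 1-month library 1 and 3 in 12-month library 5, while miR-451-y had 13 in 1-month library 2 and 7 in 12-month library 4. For miR-486 the 3p entry miR-486-y had 2 counts, both in 12-month library 5, of 51134 in all. Its sequence is complementary to miR-486-x over a run of 20 bases, and chi-miR-451-3p to miR-451-x over 16. These 3 entries, chi-miR-451-3p, miR-451-y and miR-486-y, did not pass the filter. A count of 0 allows up to 3 counts, which is 0.212 to 0.386 TMM-scaled CPM depending on the library.

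Some libraries stood apart in ways that touch these miRNAs. 1-month library 2 held only 1.58% of its counts in gland epithelium miRNAs (miR-200, miR-141, miR-429, miR-375 and miR-148a), against 9.42% to 27.8% in the other 8 libraries, and 10.8% in leukocyte miRNAs (miR-142, miR-223 and miR-150). 12-month library 4 held 0.247% in muscle miRNAs (miR-1, miR-133, miR-206, miR-208 and miR-499), against 0.0155% to 0.0611% elsewhere. Both libraries also led in the sum of 13 entries that carry numbers of fish miRNAs, such as miR-462, miR-731 and miR-2188, a list drawn up after its values were seen. These 13, not each of which was highest there, summed to 252 TMM-scaled CPM in 1-month library 2 and 160 in 12-month library 4, against 36.4 and 13.3 in the other 1-month libraries, 37.1 and 10.5 in the other 12-month libraries and 11.6, 3.87 and 3.80 at 24 months. Together the 2 libraries held 79.2% of the list's counts and 23.5% of all counts. Results on the members are therefore given with and without these 2 libraries.

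The 10 entries together took 0.403%, 0.201% and 0.296% of counts in 1-month libraries 1, 2 and 3. At 12 months they took 0.218%, 0.360% and 0.0735% in libraries 3, 4 and 5, and at 24 months 0.111%, 0.116% and 0.101% in libraries 2, 3 and 5. Each share has a Wilson 95% interval within a few thousandths of a percent (for example 0.399% to 0.406% in 1-month library 1), which covers counting error only. The 24-month libraries lay close together, all below every 1-month library. The 12-month libraries covered nearly the whole range, and library 5 was the lowest of the 9.

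chi-miR-144-3p, the shorter 3p form, stood at 464, 827 and 287 TMM-scaled CPM in 1-month libraries 1, 2 and 3. It stood at 338, 737 and 132 in 12-month libraries 3, 4 and 5, and at 162, 172 and 117 in 24-month libraries 2, 3 and 5. All 24-month values lay below all 1-month values, and the 12-month libraries overlapped both. Averages were 150.5 ± 29.4 at 24 months against 526 ± 275 at 1 month (SD, n = 3 each), a log2 fold change of −1.81 (SE 0.60). The difference passed the threshold (edgeR adjusted p = 0.0462, with different goats at the 2 ages).

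miR-144-y, the longer form, stood at 627, 370.0 and 489 TMM-scaled CPM at 1 month, 297, 576 and 141 at 12 months, then 146, 225 and 159 at 24 months, in the same library order. Here 1-month library 2 was the lowest of its age, while for the shorter form it was the highest. Its averages were 176.5 ± 42.2 at 24 months against 495 ± 129 at 1 month (SD, n = 3 each). It was lower by 1.49 on the log2 scale (SE 0.49, edgeR adjusted p = 0.0461), and each goat at 24 months lay below each of the other goats at 1 month.

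Both calls lay close to the threshold and turned on single libraries. The adjusted p of chi-miR-144-3p was 0.0597 without 1-month library 1, 0.123 without 1-month 2, and 0.0785, 0.0948 and 0.0974 without 24-month 2, 3 and 5. That of miR-144-y was 0.104 and 0.0783 without 1-month 1 or 3, and 0.0987, 0.0734 and 0.0906 without 24-month 2, 3 and 5. Over all settings tried the adjusted p ran from 0.000694 to 0.209 and from 0.00536 to 0.219 for the shorter and the longer form, and both fold changes stayed negative throughout.

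The other arm was scarce. chi-miR-144-5p stood at 37.6, 12.3 and 26.2 TMM-scaled CPM at 1 month, 9.91, 29.7 and 5.84 at 12 months, then 7.33, 15.6 and 9.10 at 24 months. Its log2 fold change at 24 months against 1 month was −1.25 (SE 0.64, edgeR adjusted p = 0.161), with overlapping ages. miR-144-x, the form of this arm with the shifted seed, stood at 4.91, 16.1 and 2.89 at 1 month, 2.96, 11.3 and 0.449 at 12 months, then 0.867, 2.62 and 2.65 at 24 months. 1-month library 2 and 12-month library 4 were its 2 highest, as they were for chi-miR-144-3p, and held 62.7% of its counts. Its ages 24 and 1 month did not overlap, but the fold change of −1.97 (SE 1.00) did not pass (edgeR adjusted p = 0.161). Without 1-month library 2 it was −0.95 (adjusted p = 0.499).

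miR-451 was listed at similar levels. Its longer form miR-451-x stood at 1121, 265 and 533 TMM-scaled CPM in 1-month libraries 1, 2 and 3, at 325, 650.0 and 105 in 12-month libraries 3, 4 and 5, and at 201, 309 and 196 in 24-month libraries 2, 3 and 5. Its shorter form chi-miR-451-5p stood at 305, 296 and 227 at 1 month, 696, 671 and 154 at 12 months, then 281, 202 and 306 at 24 months. On average the longer form was highest at 1 month and the shorter at 12 months, and for both the ages overlapped. Against 1 month, the 24-month fold change was −1.44 for miR-451-x (SE 0.66, edgeR adjusted p = 0.119) and −0.07 for chi-miR-451-5p (SE 0.50, edgeR adjusted p = 0.944). The value of miR-451-x was −0.77 without 1-month library 1 (adjusted p = 0.408). The sign of chi-miR-451-5p turned to 0.10 with upper-quartile scaling.

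miR-486-x, the 5p arm and the most abundant of the 7 on average, stood at 848, 338 and 862 TMM-scaled CPM at 1 month. It stood at 660.3, 745 and 259 at 12 months and at 356, 297 and 348 at 24 months. The 3 libraries at 24 months were near one another, and 1-month library 2 and 12-month library 5 were as low or lower. The averages were 334 ± 31.9 at 24 months against 682 ± 299 at 1 month (SD, n = 3 each), a log2 fold change of −1.03 (SE 0.47) that did not pass (edgeR adjusted p = 0.121). Since miR-486 is also made in muscle, the muscle list matters beside it. chi-miR-206, a miRNA of skeletal muscle, reached 826 TMM-scaled CPM in 12-month library 4 and at most 65.0 in any other library, while miR-486-x there was 745, close to its level in 12-month library 3. The part of muscle in the miR-486 level was not tested.

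**Figure D1:**
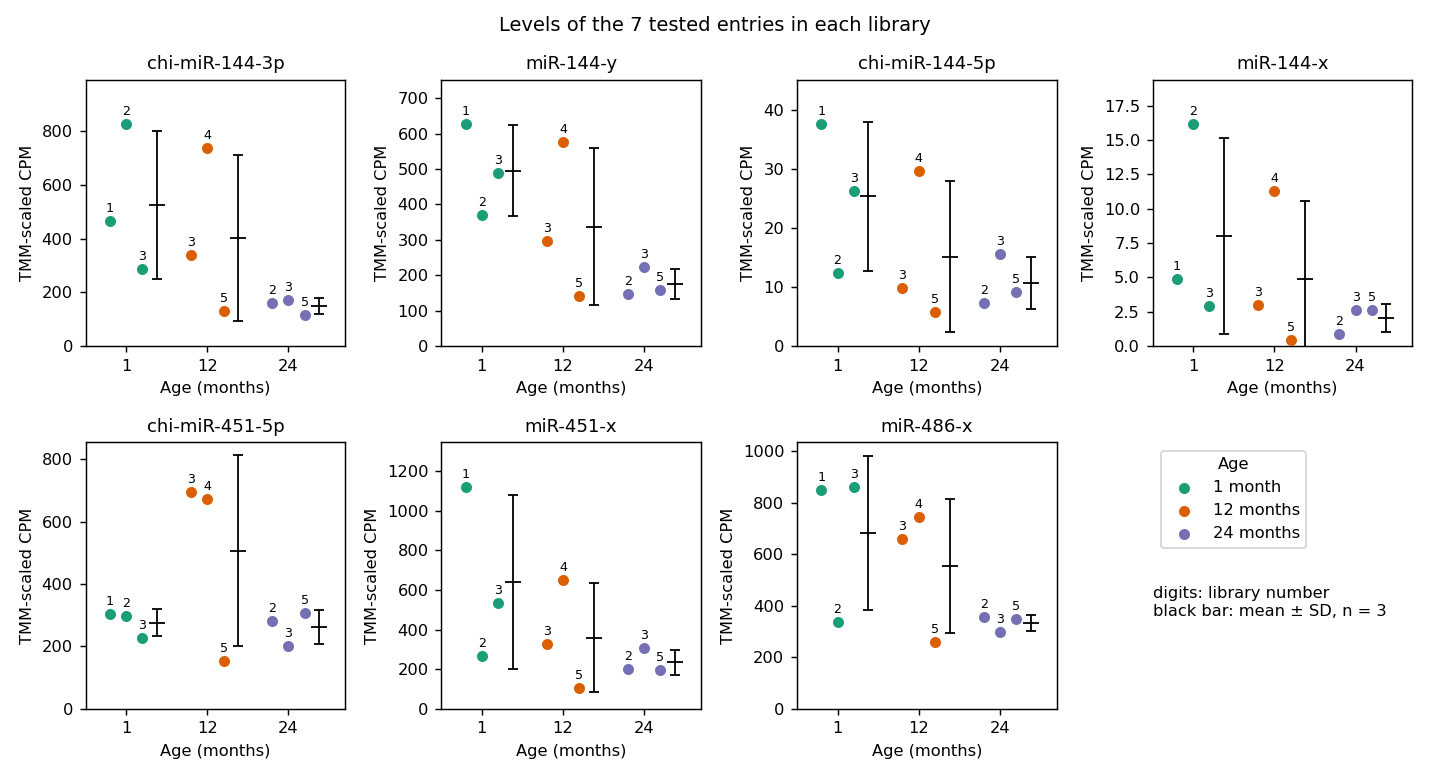
TMM-scaled CPM (y axis, linear, from 0) of the 7 tested entries at 1, 12 and 24 months (x axis), 1 point per library with its number, and the mean ± SD of 3 libraries as a black bar, ending at 0. The SD is smallest at 24 months in every panel but that of chi-miR-451-5p, where it is 54.3 against 42.5 at 1 month. chi-miR-144-3p and miR-144-x peak in 1-month library 2 and 12-month library 4, and 12-month library 5 is the lowest of its age in every panel.

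Across the ages, 2 of the 7 tested entries fell at 24 months against 1 month and 0 rose, and the 2 are read as forms of 1 RNA. Over all tested entries 26.3% passed in that comparison and 17.5% passed downward, so the count of 2 is near the share in the whole table. All 7 had negative fold changes, with a median of −1.44 against −0.06 over all tested entries. In 3 of the 7 every 24-month library lay below every 1-month library, and 25.8% of all tested entries did the same. Fewer red cells in the gland and less of these RNAs per cell cannot be told apart in whole tissue.

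At 12 months against 1 month none of the 7 passed with edgeR, DESeq2 or limma voom, and 0 had an unadjusted p under 0.05 with any of the 3 tools. Of all tested entries 19.2% passed with edgeR and 39.9% had an unadjusted p under 0.05. The log2 fold changes ran from −0.83 for miR-451-x (SE 0.65, adjusted p = 0.358) to 0.88 for chi-miR-451-5p (SE 0.50, adjusted p = 0.212), read as 2 forms of 1 RNA. The median of the 7 was −0.55, against −0.02 over all tested entries. At 24 months against 12 months none of the 7 passed, and 0% of all tested entries did. chi-miR-144-3p had the lowest p of the members there (unadjusted 0.0355, adjusted 0.998, log2 −1.42, SE 0.59), the only 1 of the 7 with an unadjusted p under 0.05 by edgeR, while DESeq2 had 1 and limma voom 0. In the whole table edgeR had 40 such entries (4.27%), DESeq2 42 and limma voom 13. All 7 fold changes were negative, with a median of −0.94, but several moved with single 12-month libraries. Without library 4 chi-miR-144-3p stood at −0.64 and miR-144-y at −0.30 instead of −0.94, and chi-miR-144-5p, miR-451-x and miR-144-x turned to 0.44, 0.14 and 0.29. chi-miR-451-5p and miR-486-x, at −0.95 and −0.73 over all libraries, moved to −0.42 and −0.38 without library 3, and to −0.69 and −0.45 without library 4.

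**Figure D2:**
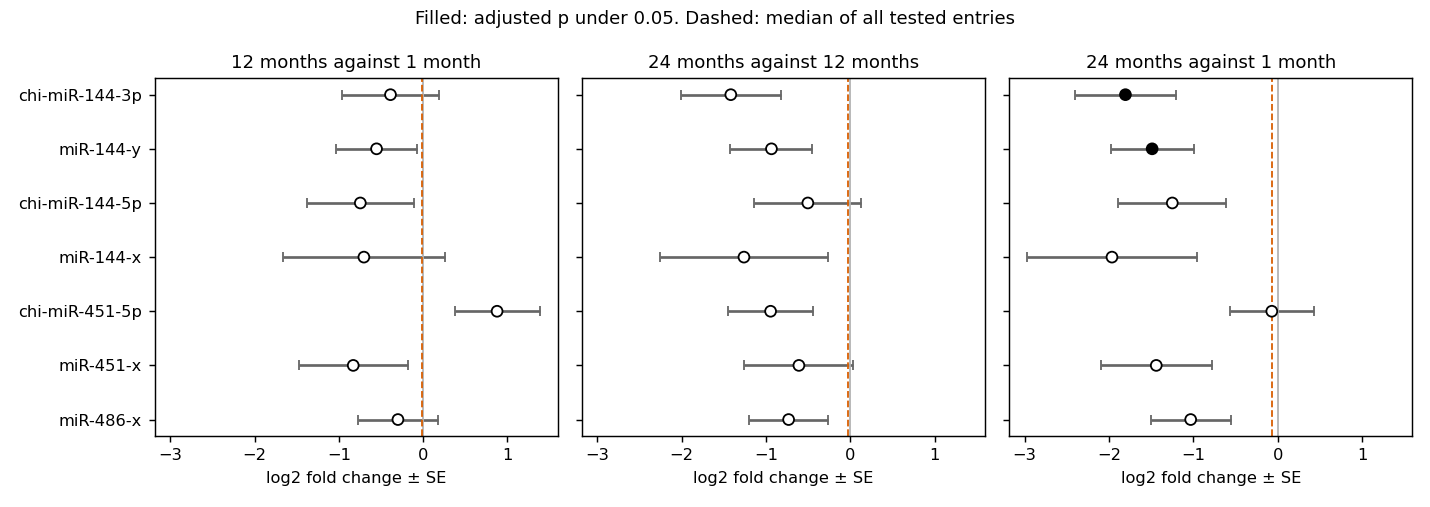
Log2 fold change ± standard error of the fit (x axis) of the 7 tested entries (y axis) in the 3 comparisons, all 9 libraries in 1 fit. Filled points passed an adjusted p of 0.05 and the dashed line is the median of all 937 tested entries. The 2 filled points are chi-miR-144-3p at −1.81 and miR-144-y at −1.49, both at 24 months against 1 month.

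With 1-month library 2 and 12-month library 4 both left out, a choice made after the data were seen, 5 of the 7 passed downward at 24 months against 1 month, where 16.5% of all tested entries did. They were miR-144-y (−1.66, edgeR adjusted p = 0.00851), miR-486-x (−1.36, adjusted p = 0.0217), chi-miR-144-5p (−1.58, adjusted p = 0.0221), miR-451-x (−1.81, adjusted p = 0.0271) and chi-miR-144-3p (−1.32, adjusted p = 0.0369). In miR-144-y, miR-486-x, chi-miR-144-5p and miR-451-x, 1-month library 2 was the lowest of its age, so leaving it out raised their 1-month averages. The 5 are not independent, as they hold both 3p forms and a 5p entry of miR-144. At 12 months against 1 month 3 passed downward in that fit, beside 9.54% of all tested entries: chi-miR-144-5p (−2.02, adjusted p = 0.0227), miR-144-y (−1.35, adjusted p = 0.0491) and miR-451-x (−1.94, adjusted p = 0.0493). In these 3, 12-month library 4 was the highest of its age. At 24 months against 12 months 0 passed. chi-miR-451-5p stood at 0.68 at 12 months against 1 month and at −0.02 at 24 months against 1 month, and passed in neither. miR-144-x did not pass either, at −0.94 at 24 months against 1 month (adjusted p = 0.359) instead of −1.97 over all libraries, and at −1.23 at 12 months against 1 month (adjusted p = 0.332). miR-486-x also passed with only 1-month library 2 left out (−1.38, adjusted p = 0.0263), with adjusted p from 0.0217 to 0.626 over all settings.

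The longer and shorter forms did not keep a fixed ratio. miR-451-x over chi-miR-451-5p was 3.68, 0.894 and 2.34 at 1 month, 0.467, 0.968 and 0.682 at 12 months, then 0.718, 1.53 and 0.641 at 24 months. miR-144-y over chi-miR-144-3p was 1.35, 0.448 and 1.70 at 1 month, 0.879, 0.781 and 1.07 at 12 months, then 0.901, 1.31 and 1.36 at 24 months. For miR-451 1-month libraries 1 and 3 held the most of the longer form relative to the shorter. For miR-144 1-month library 3 did, while 1-month library 1 was level with 24-month libraries 3 and 5. In both pairs 1-month library 2 lay below the other 1-month libraries. In 94 other pairs of this kind in the table, in which an entry without the goat prefix begins with a whole goat-named sequence, the median ratio ran from 0.125 to 0.190 over the libraries. It was 0.161, 0.147 and 0.125 in 1-month libraries 1, 2 and 3. Thus the higher miR-451 ratio of 1-month libraries 1 and 3 was not seen in that median, and no test of the difference was made. The miR-144 ratio overlapped between the ages. A median cannot show how much single pairs vary. The other pairs also moved between libraries: 77 of the 94 lay below their own mean log2 ratio in 1-month library 3, and 24 in 12-month library 4.

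**Figure D3:**
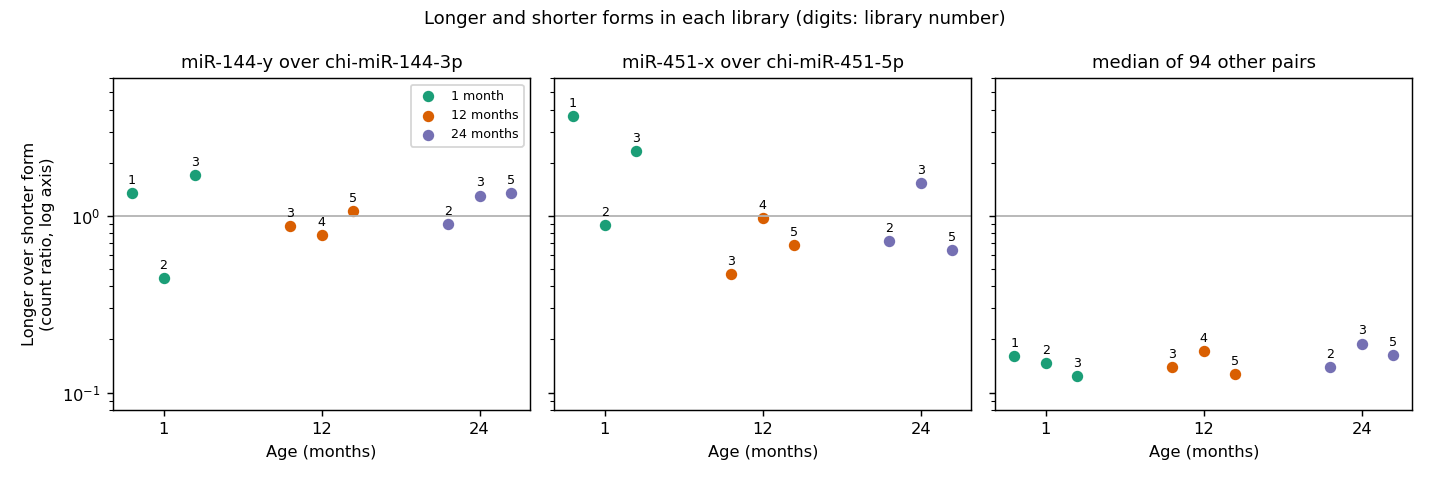
Count of the longer form over count of the shorter form (y axis, log scale) in each library by age (x axis), for miR-144 3p, miR-451 5p and the median of 94 other pairs, digits giving the library number. The miR-451 ratio spans 0.467 to 3.68 and the miR-144 ratio 0.448 to 1.70, while the median of the other pairs stays between 0.125 and 0.190.

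Summed over both forms, the 3p arm of miR-144 averaged 1021 ± 219 TMM-scaled CPM at 1 month, 740.0 ± 528 at 12 months and 327 ± 62.7 at 24 months (SD, n = 3 each). The 5p arm of miR-451 averaged 916 ± 453, 867 ± 548 and 498.8 ± 15.04 at the same ages. With the forms summed before the fit, the miR-144 3p arm fell at 24 months against 1 month (log2 −1.65, SE 0.51, edgeR adjusted p = 0.0372), while the miR-451 5p arm did not pass (−0.88, SE 0.55, adjusted p = 0.248).

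Although both are cut from 1 transcript, miR-451 over miR-144, each summed over its forms, ran from 0.469 in 1-month library 2 to 1.82 in 24-month library 5. It was 1.31, 0.469 and 0.979 at 1 month, 1.61, 1.01 and 0.950 at 12 months, then 1.56, 1.29 and 1.82 at 24 months, so that the ages overlapped. miR-486 over miR-451 ran from 0.564 to 1.13, with no separation of the ages either.

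In plasma, miR-451 relative to miR-23a, a miRNA that red cells hold little of, is used as a sign of lysed red cells, and the same ratio in tissue needs no scaling between libraries. miR-451 over chi-miR-23a was 0.340, 0.388 and 0.181 at 1 month, 0.191, 0.301 and 0.0765 at 12 months, then 0.139, 0.0765 and 0.0671 at 24 months. miR-486 over chi-miR-23a was 0.202, 0.234 and 0.205 at 1 month, 0.124, 0.170 and 0.0764 at 12 months, then 0.103, 0.0445 and 0.0465 at 24 months. Both ratios were lower in every 24-month library than in any 1-month library, and 12-month library 4 had the highest value of its age in both. chi-miR-23a itself ranged from 1445 TMM-scaled CPM in 1-month library 2 to 7489 in 24-month library 5, so the ratios carry that difference too.

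Other miRNAs found in red cells or known in red cell formation (miR-16, miR-15b, miR-25, miR-92a, miR-185, miR-363, miR-210, miR-221, miR-222, miR-22 and miR-320) gave 33 tested entries. At 24 months against 1 month 13 of them fell and 4 rose, and at 12 months against 1 month 12 fell and 3 rose, while 0 passed between 24 and 12 months. Over all tested entries 17.5% fell and 8.75% rose at 24 months against 1 month, and 13.2% fell and 5.98% rose at 12 months against 1 month. The most abundant was miR-22-y, a regulator of blood stem cells, which rose to 14352 ± 2655 TMM-scaled CPM at 24 months against 6320 ± 638 at 1 month (log2 1.18, edgeR adjusted p = 0.0179). chi-miR-16a-5p, a brake on the cell cycle, and chi-miR-92a-3p, of the miR-17-92 cluster, fell by 1.63 (adjusted p = 0.0487) and fell by 2.52 (adjusted p = 0.00779). Their spread at 1 month was wide, with averages of 16167 ± 13692 and 10255 ± 7943 TMM-scaled CPM (SD, n = 3), and both are made in many cell types. On leaving out 1 library the count at 24 months against 1 month ran from 8 to 13 that fell (fewest without 24-month library 3) and from 0 to 6 that rose, and at 12 months against 1 month from 6 (without 12-month library 4) to 15 and from 0 to 4. chi-miR-16a-5p passed only with 1-month library 1 or 3 left out (edgeR adjusted p 0.0264 to 0.149), and miR-22-y was lost without 12-month library 3 or 5 or any 24-month library (0.00897 to 0.134), while chi-miR-92a-3p passed each time. Without 1-month library 2 the fold changes of chi-miR-16a-5p and chi-miR-92a-3p were −0.69 and −1.69.

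All 7 tested entries of the leukocyte miRNAs miR-142, miR-223 and miR-150 fell at 24 months against 1 month, with a median of −5.60, and their summed share was 0.106% to 0.138% of counts at 24 months against 2.57% to 10.8% at 1 month. On leaving out 1 library 4 to 7 of them passed, with 4 without 24-month library 3 and 5 without 1-month library 3 or 24-month library 2. miR-142-x, a marker of blood-forming cells, averaged 1055 ± 155 TMM-scaled CPM at 24 months against 51099 ± 45431 at 1 month. The members did not share 1 order within 1 month: 1-month library 2, the highest in leukocyte miRNAs, was the lowest of its age in miR-486-x, miR-451-x, miR-144-y and chi-miR-144-5p, the highest in chi-miR-144-3p and miR-144-x, and between the others in chi-miR-451-5p. Of the 4 tested entries of miR-126, a marker of vessel lining, 1 rose at 24 months against 1 month and 0 fell, with a median log2 fold change of 0.24. The most abundant, chi-miR-126-3p, averaged 3683 ± 290 TMM-scaled CPM at 24 months against 4589 ± 2182 at 1 month and did not pass (log2 −0.32, edgeR adjusted p = 0.575). chi-miR-126-5p stood at 0.0053 and miR-126-y at 0.47, and neither passed. The scarcest, miR-126-x, rose to 167 ± 64.3 TMM-scaled CPM at 24 months against 72.4 ± 20.7 at 1 month (log2 1.20, edgeR adjusted p = 0.0487), a call lost on leaving out any single library (0.0534 to 0.232). The part of leukocytes or vessels in the red cell miRNA levels was not tested.

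The miRNAs whose pattern over the 9 libraries was most like that of chi-miR-144-3p were miR-7132-y (Pearson r = 0.964), miR-1338-x (0.962), miR-2188-x (0.947), miR-7132-x (0.945) and miR-462-x (0.935), among 780 candidates. The first of these are scarce, so their r rest on few counts. miR-7132-y had 0 counts in 12-month library 5 and 24-month libraries 3 and 5. miR-1338-x had at most 9 in 12-month library 5 and in each 24-month library. miR-2188 and miR-462 are of the fish-named list. miR-2188-x stood at 137 TMM-scaled CPM in 1-month library 2 and 50.9 in 12-month library 4, against 1.497 to 10.3 in the other 7. miR-7132-x, miR-1338-x and miR-7132-y, which are not on the fish-named list, were also highest in these 2 libraries. They stood at 43.0, 26.8 and 7.16 TMM-scaled CPM in 1-month library 2, and at 39.3, 19.0 and 5.55 in 12-month library 4. Elsewhere they reached at most 8.35, 3.74 and 1.47. Of the 6 tested entries of that list, 5 had these 2 libraries as their highest pair, as chi-miR-144-3p and miR-144-x did, while 4.48% of all tested entries did. Since the list was drawn up after its values were seen, its 5 of 6 is no test of that pattern. The mature miR-144 sequence is shared by fish and mammals, and reads of the 2 cannot be told apart by it. The part of such reads in the miR-144 level was not tested.

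**Figure D4:**
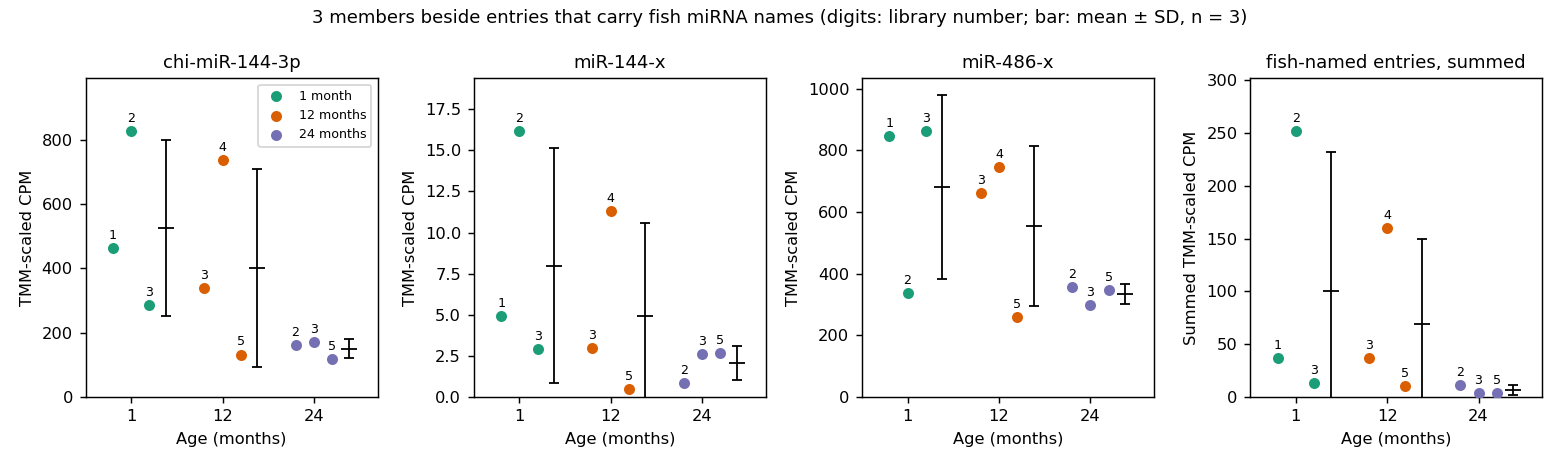
TMM-scaled CPM (y axis, linear, from 0) of chi-miR-144-3p, miR-144-x and miR-486-x, and the summed TMM-scaled CPM of 13 fish-named entries, by age (x axis), 1 point per library with its number and mean ± SD (n = 3) as a bar, ending at 0. The fish-named sum is 252 in 1-month library 2 and 160 in 12-month library 4 and at most 37.1 elsewhere. The same 2 libraries are highest for chi-miR-144-3p and miR-144-x, and miR-486-x is highest in 1-month libraries 1 and 3.

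The nearest patterns to miR-451-x were looser, led by chi-miR-133b (r = 0.73), chi-miR-130a-3p (0.72), miR-767-x (0.69), miR-125-y (0.69) and chi-miR-542-5p (0.67). Those to miR-486-x were chi-miR-214-5p (0.88), miR-3957-y (0.87), miR-99-y (0.83), miR-10172-y (0.83) and chi-miR-214-3p (0.82). All these r describe 9 libraries that differ in age and composition, and they are given without a test. miR-767-x was scarce too, with 0 counts in 12-month library 5 and 24-month libraries 2 and 5. Among the members, miR-451-x went with chi-miR-144-5p (r = 0.96), miR-144-y (0.92) and miR-486-x (0.87), and less with its own shorter form chi-miR-451-5p (0.43).

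Within an age all 7 members spread more than the median miRNA. The pooled within-age SD of log2 TMM-scaled CPM was 0.65 to 1.31 for the 7, against a median of 0.60 over all tested entries. miR-144-y and miR-486-x were the least variable, at 0.65 and 0.66, and miR-144-x, with few counts, the most.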

How the data were processed

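The deposited table by the authors holds raw counts of reads per mature miRNA entry, per the file headers, in 9 libraries. RNA was taken with TRIzol and sequenced by an Illumina miRNA protocol, per the labels' protocols. FastQC and Bowtie are named, per the submitters' processing notes, with no role or version. Neither build nor miRNA database is given in the sources used here. Reads carry no molecular identifiers, so intervals cover counting error only.

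Entries were filtered by edgeR's filterByExpr (minimum count 10, minimum total 15). edgeR 4.0.16 in R 4.3.3 (TMM scaling, quasi-likelihood test with robust shrinkage, residual degrees of freedom 6) was fitted to the whole table, with Benjamini-Hochberg adjustment over all 937 tested entries and a threshold of 0.05. The test was checked on simulated data. Alternatives used DESeq2 1.42.0, limma 3.58.1 (voom), other scaling, no filter, 2 ages only, left-out libraries, a replicate block and summed forms. Correlations and spreads used log2(TMM-scaled CPM + 0.5).

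All members that passed the filter are named, with the 5 nearest patterns per family. Of each context list the 3 most abundant entries were considered. All 3 are given for the other red cell miRNAs and for miR-126. Only chi-miR-206 is given of the 3 for muscle and only miR-142-x of the 3 for leukocytes, with none for gland epithelium. The members, lists and tests were chosen with earlier results of these data known.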

Additional observations from a re-analysis of the deposited data

How the results depend on the processing

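The members' fold changes gave 357 values under the alternatives, of which 320 kept both direction and side of the threshold, 14 turned sign, 14 lost a call and 9 gained one. The cause of each change was not tested.

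The count of members called at 24 months against 1 month, 2 over all 9 libraries, was 1 with upper-quartile scaling, 1 with limma voom, 4 with no filter (miR-451-x and miR-144-x added, adjusted p = 0.00719 and 0.0116 by edgeR), 1 with the entries of an arm summed, and 5 without 1-month 2 and 12-month 4. It ran from 0 to 2 on leaving out 1 library. At 12 months against 1 month it was 3 instead of 0 without those 2 libraries. Over all entries, 12 months against 1 month gave 180 calls, 285 with DESeq2 and 83 to 218 on leaving out 1 library. At 24 months against 1 month, where 246 passed, leaving out 1 library gave 116 to 255. In that comparison 285 entries passed with upper-quartile scaling, 257 with limma voom and 288 with no filter. With no filter the tested set was no longer the 937 entries, so its 4 members cannot be set beside the 2. For 24 months against 12 months, where 0 passed, leaving out 1 library gave 0 to 2, and no filter gave 5. Library size alone moved the median of all entries at 24 months against 1 month from −0.06 to −0.36 and the share of higher calls from 33.3% to 19.2%. With the upper quartile that share was 46.3%.

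Sign changes were among values that did not pass. On leaving out 1 library, 12 months against 1 month ran from −1.14 to 0.078 for chi-miR-144-3p and from −2.22 to 0.31 for miR-144-x. For 24 months against 12 months it ran from −0.65 to 0.44 for chi-miR-144-5p, from −0.80 to 0.14 for miR-451-x and from −1.56 to 0.29 for miR-144-x, and without both libraries these stood at 0.44, 0.13 and 0.29. chi-miR-451-5p at 24 months against 1 month ran from −0.34 to 0.017, and was 0.10 with the upper quartile.

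The replicate block, with the labels' numbers as a term and 2 residual degrees of freedom, gave 4 calls for 12 months against 1 month and 71 for 24 months against 1 month, 0 of them members. Under the block miR-451-x and chi-miR-451-5p at 24 months against 1 month were −0.46 and 0.29, and at 24 months against 12 months chi-miR-144-5p, miR-451-x and miR-144-x were 0.65, 0.44 and 0.38. The deviations of same-numbered libraries from one another's ages correlated weakly, at −0.20 to 0.17, and mostly with a negative sign. Such values cannot show whether these libraries share handling or a batch, which was not tested.

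The entry of each family most abundant over the 9 libraries was also used in place of the sum. Then log2 of miR-451 over miR-23a was −2.44, −3.94 and −4.60 at 1, 12 and 24 months. That of miR-451 over miR-144 turned sign, to 0.17 and −0.19 at 1 and 12 months from −0.25 and 0.21 with the sums. That of miR-486 over miR-451 also turned sign, to 0.21, 0.84 and 0.53 from −0.43, −0.49 and −0.58. The miR-451 entry used was miR-451-x, which averaged below chi-miR-451-5p at 12 and 24 months. The ratios of longer to shorter forms and of the miR-144 arms have no such alternative.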
